A study of Mus musculus with 8 samples.

Results

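The genes described here are 10 noncoding host genes of small nucleolar RNAs (snoRNAs): Gas5, Zfas1, Snhg1, Snhg3, Snhg5, Snhg6, Snhg8, Snhg12, Snhg15 and Snhg17. They were chosen by name, as transcripts known from other work as decay targets, and matched by symbol to the Entrez identifiers of the count table, where all 10 were found among 27179 genes and passed the filter on low counts. The rule has no threshold, but the list was drawn up with earlier results of these data in view. The differences of these 10 genes between Upf1-cKO and Ctrl are therefore treated as values they were selected on and are given below as a description, without P values. The data were RNA-seq counts from 8 libraries of B cell progenitors sorted from mouse bone marrow, with 2 libraries in each of 4 groups. All mice carried Upf1 Flox/Flox and Igh B1-8hi/+, a pre-rearranged heavy chain knock-in. The groups called Upf1-cKO also carried Mb1 Cre/+, in which Cre is driven from the B-lineage gene Mb1 (Cd79a), and the groups called Ctrl were Mb1 +/+. Each genotype was sampled at the early large pre-B (early LPre-B) and the small pre-B (sPre-B) stage, from adult, age-matched mice given no treatment. Because Ctrl mice had no Cre, an effect of Cre or of the Mb1 insertion and an effect of Upf1 deletion cannot be told apart.

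A snoRNA host gene makes a long transcript whose introns contain the snoRNAs, which guide the chemical modification of ribosomal and spliceosomal RNA. Splicing frees the introns, and the snoRNAs are trimmed out of them, while the spliced exons leave the nucleus as an RNA with no conserved protein. A ribosome that starts on such an RNA meets a stop codon early, with exon junctions still ahead of it. That arrangement is the classical trigger of nonsense-mediated decay (NMD), in which the helicase UPF1 commits the RNA to degradation. Many hosts also begin with a terminal oligopyrimidine tract, which ties their translation to growth signals, and Gas5 was first isolated as a growth arrest-specific transcript.

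The first open reading frames of the spliced hosts are short. One spliced GENCODE transcript (release M21, build GRCm38, the same build as mm10) was taken for each gene. Gas5 lies on chr1:161034601-161038539, Zfas1 on chr2:167062934-167065862, Snhg12 on chr4:132308678-132311024, Snhg15 on chr11:6525591-6528760, Snhg5 on chr9:88521052-88522897, Snhg8 on chr3:123507552-123508336 and Snhg3 on chr4:132351933-132353686. The frames of these 7 hosts are printed 5′ to 3′, with the start codon and the stop codon in capitals, to set 5 hosts that were higher in Upf1-cKO, with frames of different length, beside Snhg8 and Snhg3, whose levels differed least in early LPre-B cells.
Gas5: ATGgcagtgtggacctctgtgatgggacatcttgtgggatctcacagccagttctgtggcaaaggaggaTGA
Zfas1: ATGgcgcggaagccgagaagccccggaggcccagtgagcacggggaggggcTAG
Snhg12: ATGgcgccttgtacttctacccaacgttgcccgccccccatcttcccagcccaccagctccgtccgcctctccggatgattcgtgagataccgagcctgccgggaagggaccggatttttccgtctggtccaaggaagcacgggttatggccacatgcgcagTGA
Snhg15: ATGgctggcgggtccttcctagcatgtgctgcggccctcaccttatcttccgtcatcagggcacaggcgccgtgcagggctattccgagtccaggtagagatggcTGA
Snhg5: ATGaccaagTGA
Snhg8: ATGTAG
Snhg3: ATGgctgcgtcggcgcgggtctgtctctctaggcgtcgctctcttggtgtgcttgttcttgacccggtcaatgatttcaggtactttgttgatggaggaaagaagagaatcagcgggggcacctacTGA

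The frame held 23 codons in Gas5, 17 in Zfas1, 54 in Snhg12 and 35 in Snhg15, stop codon not counted. It held 3 codons in Snhg5, and in Snhg8 the start codon was followed at once by a stop. The longest frame of each host held from 35 codons in Snhg8 to 79 in Zfas1, and in Snhg6 and Snhg12 it was also the first. Exon junctions more than 50 nt past the first stop codon, the usual landmark for NMD, numbered 7 in Gas5, 5 in Snhg1, 4 each in Zfas1, Snhg5 and Snhg17, 3 each in Snhg12 and Snhg15, 2 in Snhg8 and 1 in Snhg6. The Snhg3 transcript had none, as its 42-codon frame ran past the last of its junctions. Such a junction was thus present in 9 of the 10 transcripts, against 72.9% of the 13594 other spliced long noncoding transcripts in the annotation, so the feature is common. Past the longest reading frame it was present in 5 of 10 (Gas5, Snhg1, Snhg6, Snhg8 and Snhg12), against 24.8%. The chosen transcript is not the only one: 2 of the 5 spliced Snhg3 transcripts did have a junction past the first stop, and the counts do not separate transcripts.

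**Figure D1:**
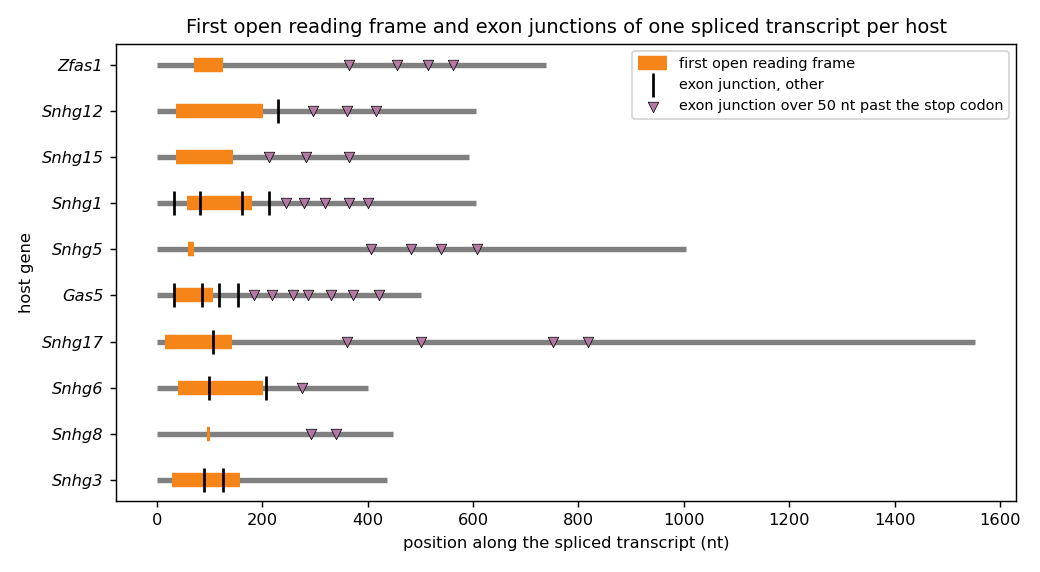
Spliced transcript of each host gene (grey), in nt from its start, with the first open reading frame (orange), exon junctions more than 50 nt past its stop codon (triangles) and other junctions (black ticks). Snhg3, at the bottom, is the one transcript of the 10 with no triangle, and Gas5 has 7.

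The libraries held 68516857 to 160426338 counts. Upf1 itself stood at 237 and 213 normalized counts (CPM, counts scaled to the effective library size) in Ctrl and at 244 and 258 CPM in Upf1-cKO cells of the early LPre-B stage, and at 186 and 198 CPM against 282 and 293 CPM in sPre-B cells. The gene count covers exons outside the floxed segment, so it does not check the deletion, and in sPre-B cells it was higher in Upf1-cKO. Cd79a, whose locus carries the Cre, was 0.294 times the Ctrl level in early LPre-B cells and 0.237 times in sPre-B cells. The summed levels of 10 B-lineage markers, 2365 to 9392 CPM, were above those of 7 myeloid markers, 50.1 to 355 CPM, and 5 T cell markers, at most 1.76 CPM, with no marker at 0 in every library. Several marker sums moved with genotype. Each is a plain sum of CPM, so its most abundant members weigh most, and a single marker can go another way. The B-lineage sum was lower in Upf1-cKO at both stages (2365 to 2482 against 3579 to 3719 CPM in early LPre-B and 6156 to 6165 against 9151 to 9392 CPM in sPre-B cells). Cd79a, whose locus carries the Cre, is among those 10 markers. The B-lineage markers Igll1 and Vpreb1 also count as early LPre-B markers, and Rag1 and Rag2 as sPre-B markers, so these sums are not independent. The myeloid sum was lower in Upf1-cKO than in Ctrl in early LPre-B cells (50.1 to 55.6 against 111 to 134 CPM) and in sPre-B cells (211 to 243 against 304 to 355 CPM), and it was higher in sPre-B than in early LPre-B cells of both genotypes. At the early LPre-B stage the sums of 5 early LPre-B markers (3373 to 3558 against 5240 to 5493 CPM) and of 4 sPre-B markers (104 to 156 against 530 to 540 CPM) were lower in Upf1-cKO too, as was the latter in sPre-B cells (2258 to 2417 against 3748 to 4317 CPM). The 4 erythroid markers summed to 2.56 to 6.47 CPM against 10.1 to 10.9 CPM at that stage and to 6.12 to 10.3 CPM against 17.6 to 20.6 CPM in sPre-B cells. Sums of 3 plasma cell markers (at most 59.1 against at least 69.8 CPM at either stage) and, in early LPre-B cells, of 2 NK cell markers (0.508 to 0.799 against 3.03 to 3.31 CPM) were also lower in Upf1-cKO. The part of these cells in the differences below was not tested. Both Ctrl replicate 2 libraries had Y-linked counts and almost no Xist, while the other 6 had Xist, so the sex of the mice was not balanced between genotypes; the fits were therefore also made without those 2 libraries.

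In early LPre-B cells, 9 of the 10 host genes were higher in both Upf1-cKO libraries than in both Ctrl libraries, and Snhg3 was not. In RNA from sorted cells a higher level per cell and a larger share of cells with the RNA cannot be told apart. Zfas1, which starts next to Znfx1 and hosts Snord12, stood at 22.8 and 21.6 CPM in Ctrl and at 573 and 732 CPM in Upf1-cKO. Snhg12, host of 4 snoRNAs of both box classes, stood at 14.1 and 12.7 CPM against 389 and 386 CPM. These were the widest differences, 29.4-fold for Zfas1 (log2 fold change 4.88 ± 0.15, SE, n = 2 and 2 libraries) and 28.9-fold for Snhg12 (log2 4.86 ± 0.10). Ranked by fold change over the 17700 genes tested, Zfas1 was number 20, Snhg12 number 21, Snhg8 number 485 and Snhg3 number 11630, with the other 6 hosts between 36 and 139. In sPre-B cells the 9 hosts other than Snhg3 held ranks from 123 (Snhg15) to 1242 (Snhg17), and Snhg3 held 13647.

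Snhg15 was the host least abundant by CPM in Ctrl, at 5.36 and 4 CPM, and stood at 80.5 and 86.2 CPM in Upf1-cKO. Snhg1, the host of Snord22 and 7 further annotated snoRNAs, stood at 35.4 and 35.5 CPM against 428 and 512 CPM. Snhg5, host of a pair of box C/D snoRNAs, stood at 33.6 and 33.5 CPM against 318 and 322 CPM. For these 3 genes the genotypes were thus far apart relative to the spread within each pair of libraries. The log2 fold changes were 4.15 ± 0.19 for Snhg15 (17.7-fold), 3.73 ± 0.14 for Snhg1 (13.3-fold) and 3.25 ± 0.11 for Snhg5 (9.54-fold).

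Gas5 was the most abundant of the hosts in Ctrl, at 108 and 112 CPM, and reached 762 and 727 CPM in Upf1-cKO. Snhg17 stood at 8.24 and 9.32 CPM against 59 and 54.6 CPM. Snhg6, host of Snord87, stood at 12.3 and 9.91 CPM against 72.9 and 69 CPM. These 3 genes differed by similar amounts despite their different levels, by 6.78-fold for Gas5 (log2 2.76 ± 0.12), 6.48-fold for Snhg17 (2.70 ± 0.15) and 6.37-fold for Snhg6 (2.67 ± 0.14). Snhg8, host of Snora24, stood at 22.3 and 17.5 CPM in Ctrl and at 57.8 and 69.3 CPM in Upf1-cKO, a 3.19-fold difference (log2 1.67 ± 0.14). It was the smallest of the 9.

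Snhg3, host of Snora73a and Snora73b, went the other way by a margin close to its error. It stood at 13.3 CPM in both Ctrl libraries and at 12.5 and 9.58 CPM in Upf1-cKO, with a log2 fold change of -0.26 ± 0.21. Its Upf1-cKO libraries lay below the Ctrl libraries without overlap, and the gap to the nearer one was small. Its exons overlap those of Rcc1 on the same strand, so reads in the shared part could be assigned to either gene or dropped. Rcc1, a chromatin-bound exchange factor, stood at 148 and 143 CPM in Ctrl and at 169 and 173 CPM in Upf1-cKO.

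**Figure D2:**
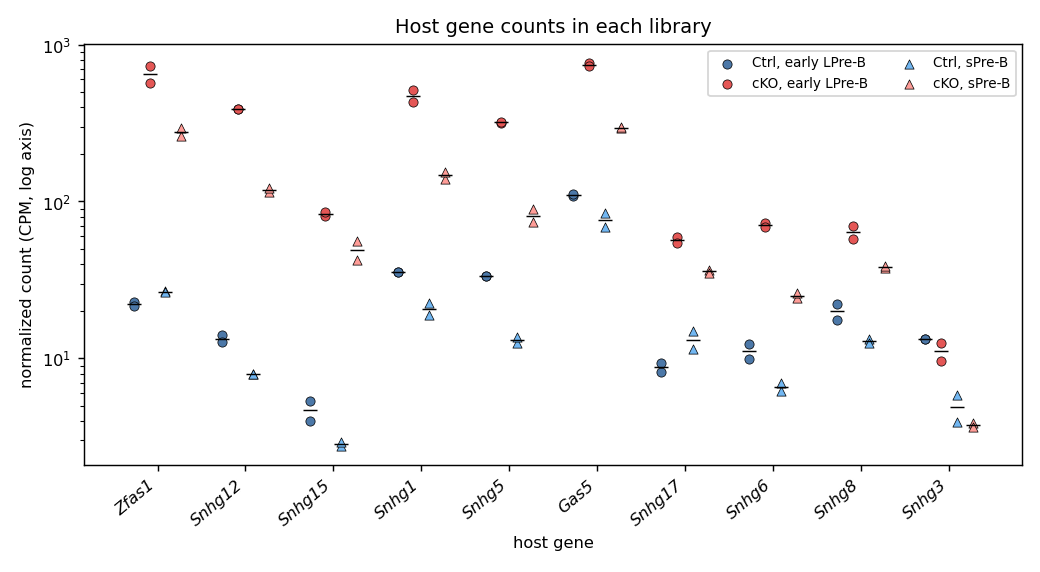
Normalized counts of the 10 host genes in each library, in CPM on a log axis, with circles for early LPre-B and triangles for sPre-B libraries, blue for Ctrl, red for Upf1-cKO, and a bar at each mean of 2. In 9 genes both red symbols of a stage lie above both blue ones, and in Snhg3 they lie at or below them.

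In sPre-B cells the same 9 genes were again higher in both Upf1-cKO libraries, by smaller factors for most. Snhg15 stood at 2.77 and 2.95 CPM in Ctrl and at 56 and 42.5 CPM in Upf1-cKO, a 17.2-fold difference (log2 4.11 ± 0.19) that was now the widest of the 10. Snhg12 stood at 7.94 CPM in both Ctrl libraries against 115 and 122 CPM, a 14.9-fold difference (log2 3.90 ± 0.10). Zfas1 followed with 26.9 and 26.3 CPM against 263 and 293 CPM, 10.4-fold (log2 3.38 ± 0.14). Within each of these genes the libraries of one genotype differed little, with the 2 Upf1-cKO libraries of Snhg15 the furthest apart.

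Snhg1 stood at 19 and 22.5 CPM in Ctrl sPre-B cells and at 140 and 154 CPM in Upf1-cKO (7.05-fold). Snhg5 stood at 12.5 and 13.7 CPM against 73.6 and 89.1 CPM (6.21-fold). Gas5 stood at 68.5 and 84.5 CPM against 294 and 297 CPM (3.86-fold). The ranges of the genotypes did not meet in any of the 3. Snhg6 stood at 6.2 and 6.96 CPM against 24.1 and 26 CPM (3.81-fold). Snhg8 stood at 13.3 and 12.6 CPM against 37.4 and 38.5 CPM (2.93-fold), and Snhg17 at 11.4 and 14.8 CPM against 36.6 and 35.1 CPM (2.73-fold). For Snhg17 the lower factor came with a higher Ctrl level than in early LPre-B cells, unlike Snhg6 and Snhg8, whose Ctrl level was lower. Snhg3 stood at 3.91 and 5.86 CPM in Ctrl and at 3.89 and 3.66 CPM in Upf1-cKO, with a log2 fold change of -0.37 ± 0.21.

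**Figure D3:**
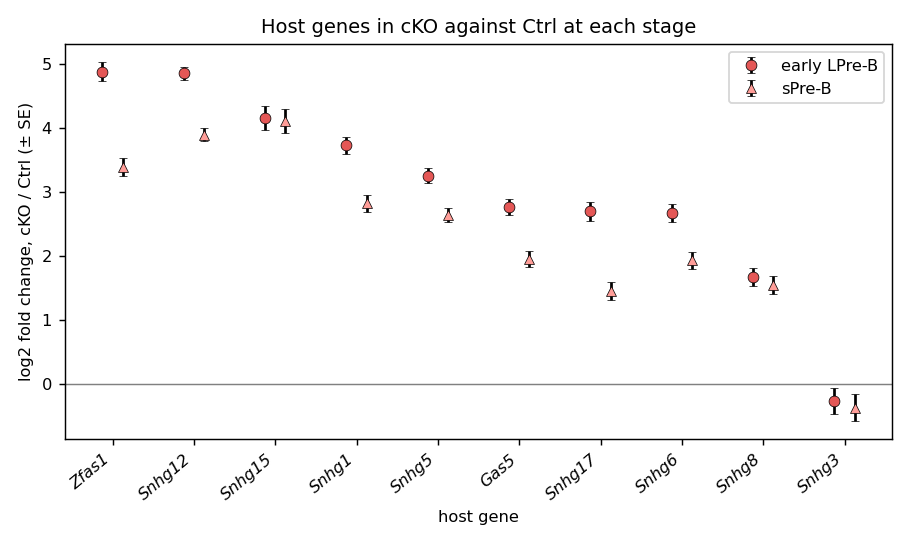
Log2 fold change of each host gene, Upf1-cKO over Ctrl, with its SE, in early LPre-B cells (circles) and sPre-B cells (triangles). Values run from 4.88 (Zfas1) to -0.26 (Snhg3) in early LPre-B cells and from 4.11 (Snhg15) to -0.37 (Snhg3) in sPre-B cells.

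The median log2 fold change of the 10 was 3.01 in early LPre-B and 2.29 in sPre-B cells, beside medians of -0.06 and 0.01 over all genes, and 3.07 and 2.37 without the Ctrl replicate 2 libraries. Both Upf1-cKO libraries lay above both Ctrl libraries for 9 of 10 hosts at each stage, as they did for 29.9% and 36.5% of all genes. As the choice of genes may rest on these contrasts, nothing is read from the counts.

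Together the 10 hosts took 0.0237% and 0.0251% of all counts in Ctrl and 0.279% and 0.298% in Upf1-cKO libraries of the early LPre-B stage. The corresponding shares in sPre-B cells were 0.0178% and 0.0204% in Ctrl against 0.113% and 0.117%. Gas5 supplied 39.3% to 42.6% of the summed normalized count in the 4 Ctrl libraries and 24.5% to 28.2% in the 4 Upf1-cKO libraries, so the composition of the group shifted away from Gas5.

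Levels can be compared between hosts only per length, here as CPM per kb of the spliced transcript chosen for each gene. The counts are per gene and not per transcript, so count and length can cover different sequence, and the order is approximate. On that scale Gas5 led in all 4 groups, at 219 ± 4.70 CPM per kb (SD, n = 2 libraries) in Ctrl early LPre-B, 1483 ± 49.7 in Upf1-cKO early LPre-B, 152 ± 22.5 in Ctrl sPre-B and 588 ± 4.42 in Upf1-cKO sPre-B cells. In Ctrl early LPre-B cells it was followed by Snhg1 at 58.6 ± 0.161, Snhg8 at 44.4 ± 7.46 and Snhg5 at 33.4 ± 0.0425 CPM per kb. Snhg3 (30.4), Zfas1 (30.0) and Snhg6 (27.8) came next, each overlapping its neighbour, then Snhg12 (22.1), Snhg15 (7.90) and Snhg17 (5.65). At that stage in Upf1-cKO the order changed to Gas5, Zfas1 (884 ± 153), Snhg1 (777 ± 97.9), Snhg12 (639, libraries 637 and 641) and Snhg5 (319 ± 2.43), with Zfas1 and Snhg1 overlapping. Snhg6 (177), Snhg8 (142), Snhg15 (141), Snhg17 (36.6) and Snhg3 (25.3) completed it, with Snhg8 and Snhg15 overlapping. Snhg12 thus held rank 8 in Ctrl and rank 4 in Upf1-cKO, and Snhg3 rank 5 and rank 10.

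In sPre-B cells the order in Ctrl was Gas5, Zfas1 (36.0 CPM per kb), Snhg1 (34.3), Snhg8 (28.9), Snhg6 (16.5), Snhg12 (13.1), Snhg5 (13.1), Snhg3 (11.2), Snhg17 (8.46) and Snhg15 (4.83). Zfas1 overlapped Snhg1, and Snhg12, Snhg5, Snhg3 and Snhg17 overlapped in turn. In Upf1-cKO sPre-B cells it was Gas5, Zfas1 (376), Snhg1 (242), Snhg12 (195), Snhg8 (84.8), Snhg15 (83.2), Snhg5 (81.0), Snhg6 (62.6), Snhg17 (23.1) and Snhg3 (8.64), with Snhg8, Snhg15 and Snhg5 overlapping.

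The stage comparison asks how the hosts differ between cycling early LPre-B cells and small pre-B cells within a genotype. It shares libraries with the genotype comparison, and the members were chosen with earlier results of these data known. The calls and P values of the hosts are therefore a description of these libraries, and nothing is read from their number. In Ctrl, 8 of the 10 hosts were called lower in sPre-B than in early LPre-B cells (edgeR quasi-likelihood test, Benjamini-Hochberg adjusted P under 0.05), against 31.1% of all genes, and 1 was higher, against 29.1%. The largest falls were those of Snhg3, by 1.44 on the log2 scale (SE 0.21, edgeR quasi-likelihood adjusted P = 0.000423), and Snhg5, by 1.36 (SE 0.11, adjusted P = 1.27e-05). For Snhg3 the values were 13.3 and 13.3 CPM in early LPre-B against 3.91 and 5.86 CPM in sPre-B cells. Snhg1, Snhg6, Snhg12 and Snhg15 fell by 0.72 to 0.77 and Snhg8 and Gas5 by 0.62 and 0.52. Gas5 (adjusted P = 0.00447) and Snhg15 (adjusted P = 0.00749) rested on individual libraries: without Ctrl sPre-B replicate 1 their adjusted P values were 0.0585 and 0.0539, and without Ctrl early LPre-B replicate 1 that of Snhg15 was 0.0839. Snhg17 was the host that rose, by 0.58 on the log2 scale (SE 0.14, adjusted P = 0.00628). Zfas1 did not pass (log2 0.26 ± 0.13, edgeR adjusted P = 0.112), except with upper-quartile scaling, where its adjusted P was 0.023.

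In Upf1-cKO all 10 hosts were lower in sPre-B than in early LPre-B cells, against 31.1% of all genes. Snhg5 fell by 1.97 on the log2 scale (SE 0.11, edgeR quasi-likelihood adjusted P = 2.56e-06), from 318 and 322 to 73.6 and 89.1 CPM. Snhg12 fell by 1.71, Snhg1 by 1.68 and Snhg3 by 1.55, and Snhg6 fell by 1.502, Gas5 by 1.33 and Zfas1 by 1.23. The smallest falls were those of Snhg15 (0.76), Snhg8 (0.74) and Snhg17 (0.66), each with an adjusted P of at most 0.00341 by the same test. The median log2 change of the 10 between stages was -1.42 in Upf1-cKO and -0.74 in Ctrl, beside 0.05 and 0.02 over all genes.

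The interaction term compares the genotype difference between the stages, sPre-B minus early LPre-B. It is the difference of the 2 genotype comparisons that the genes may have been selected on, so it is given as a description too, without P values. It was negative for all 10 hosts in the fit of the 8 libraries, with a median of -0.78 on the log2 scale beside 0.07 over all genes. Zfas1 had the widest value, -1.49 ± 0.18 (SE), followed by Snhg17 at -1.25 ± 0.20. Snhg12 (-0.96 ± 0.12), Snhg1 (-0.91 ± 0.17), Gas5 (-0.81 ± 0.17), Snhg6 (-0.74) and Snhg5 (-0.62) came next. In each of these 7 the Upf1-cKO excess was smaller in sPre-B cells. Snhg8 (-0.12 ± 0.19), Snhg3 (-0.11 ± 0.30) and Snhg15 (-0.04 ± 0.24) had values within their error, and the sign of each turned when a single library was left out. In the fit across all genes 5 hosts met the threshold as lower, against 1.6% of all genes, and none as higher (0 hosts by edgeR and by DESeq2, against 2.64%). Nothing is read from that count, which ranged from 2 to 7 when a library was left out (2 without Upf1-cKO sPre-B replicate 1, and 3 each without Ctrl early LPre-B replicate 2, Ctrl sPre-B replicate 2 or either Upf1-cKO early LPre-B library) and was 1 without both Ctrl replicate 2 libraries.

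The snoRNAs inside the hosts are counted as genes of their own. RefSeq places 32 snoRNA genes on the same strand inside the 10 hosts, and 11 of them had a row in the count table, each within an intron of the chosen host transcript. Of the 11, 9 also lie under an exon of at least 1 other annotated transcript of the host, so their counts can include host RNA and are not independent of the host values. Snord87 and Snora73b lie under none. Box C/D snoRNAs guide methylation and carry a C box (TGATGA) near the 5′ end and a D box (CTGA) near the 3′ end. The first 2 sequences below have both boxes and the third the D box alone, as matched on the printed strand and shown in capitals. They are printed for the hosts Gas5, Zfas1 and Snhg1, from chr1:161038082-161038158, chr2:167065276-167065365 and chr19:8725866-8725991, all on the plus strand.
Snord47: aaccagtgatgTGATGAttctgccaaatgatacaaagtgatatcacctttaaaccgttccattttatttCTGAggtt
Snord12: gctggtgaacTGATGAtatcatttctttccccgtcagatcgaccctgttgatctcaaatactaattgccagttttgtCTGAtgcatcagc
Snord22: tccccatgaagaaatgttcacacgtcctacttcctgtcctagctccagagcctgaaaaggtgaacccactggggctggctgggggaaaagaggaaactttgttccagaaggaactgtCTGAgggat

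In early LPre-B cells 2 of these 11 snoRNA genes were called higher in Upf1-cKO and 0 lower, against 14.5% and 16.9% of all genes, which is close to the background. Snord22, inside Snhg1, stood at 2.42 and 3.45 CPM in Ctrl and at 9.85 and 11.3 CPM in Upf1-cKO, with a log2 fold change of 1.85 ± 0.22 (edgeR quasi-likelihood adjusted P = 0.000557) beside 3.73 for its host. Snord12, inside Zfas1, stood at 2.02 and 2.65 CPM against 4.18 and 4.16 CPM (log2 0.84 ± 0.24, edgeR adjusted P = 0.0287) beside 4.88 for its host. The Snord12 call was lost without Ctrl early LPre-B replicate 1 or either Upf1-cKO library of that stage (adjusted P = 0.126, 0.106 and 0.0949). Snord22 lies under exons of 5 annotated Snhg1 transcripts and Snord12 under exons of 3 Zfas1 transcripts. The snoRNA genes of Snhg12, described next, lie under exons of 2 (Snora16a and Snora44), 3 (Snord99) and 4 (Snora61) of its transcripts, and Snord47 under those of 2 Gas5 transcripts.

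Snord47, inside Gas5, stood at 2.19 and 3.45 CPM in Ctrl and at 3.77 and 3.71 CPM in Upf1-cKO (log2 0.41 ± 0.29, edgeR adjusted P = 0.322). Within Snhg12, whose gene count was 28.9-fold higher, Snora16a, Snora44, Snora61 and Snord99 had log2 differences of 0.09 ± 0.31, 0.15 ± 0.25, 0.25 ± 0.27 and 0.47 ± 0.27, and none was called. Snora24 in Snhg8 (-0.11 ± 0.21) and Snord87 in Snhg6 (-0.31 ± 0.44) were not called either. Snora73a and Snora73b, in Snhg3, share 198 of 205 bases, so reads between them may not be assigned to one. Their libraries disagreed: Snora73a stood at 22.1 and 22.4 CPM in Ctrl and at 69 and 15.1 CPM in Upf1-cKO at the early LPre-B stage, and at 18.6 and 57.9 CPM in Ctrl sPre-B cells.

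In sPre-B cells 1 of the 11 snoRNA genes was called higher, against 19.8% of all genes, and 0 lower, against 14.9%. It was Snord22, at 1.56 and 2.06 CPM in Ctrl and 4.15 and 4.17 CPM in Upf1-cKO (log2 1.21 ± 0.23, edgeR quasi-likelihood adjusted P = 0.00404). Calls were added by some alternatives. Snora24 (log2 -0.60 ± 0.22, edgeR adjusted P = 0.0605) was called lower with DESeq2 (adjusted P = 0.0361), median-ratio factors (0.049) and a replicate block (0.0387), Snora73a was called lower with no expression filter (log2 -1.22, adjusted P = 0.0482), and at the early LPre-B stage Snora73b was called higher without Upf1-cKO replicate 2 (log2 1.77, adjusted P = 0.0183). The median log2 difference of the 11 was 0.41 in early LPre-B and -0.46 in sPre-B cells. Between stages, 2 of 11 were lower in Ctrl sPre-B and 8 of 11 in Upf1-cKO sPre-B cells, against 31.1% of all genes in each. For the interaction, which compares the genotypes directly, 0 of 11 were called higher and 0 lower, against 2.64% and 1.6% of all genes. The counts are of sequenced fragments in an rRNA-depleted library, and how much of the mature, short snoRNA such a library captures was not tested.

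**Figure D4:**
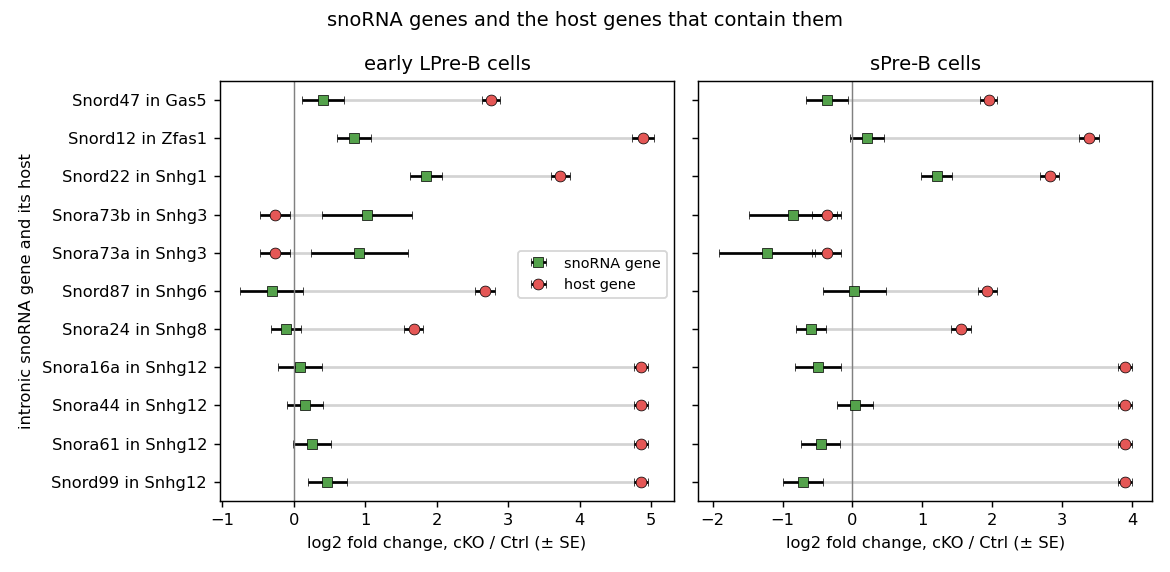
Log2 fold change, Upf1-cKO over Ctrl, with its SE, of 11 intronic snoRNA genes (green squares) and of the host gene around each (red circles), in early LPre-B cells (left) and sPre-B cells (right). Outside Snhg3, the host lies to the right of its snoRNA in both panels, by 1.79 to 4.77 in early LPre-B cells and 1.61 to 4.61 in sPre-B cells on the log2 scale.

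A further pair of hosts shares exon positions with a gene on the opposite strand. Reads were aligned without strand, and the strand setting of the counting is not given in the sources used here, so reads of such partners cannot be told apart. Znfx1, a helicase gene opposite Zfas1, had a log2 difference of -0.14 ± 0.09 in early LPre-B and 0.07 ± 0.09 in sPre-B cells, neither called (edgeR adjusted P = 0.248 and 0.577). Mcmdc2, a meiotic gene opposite Snhg6, was not called in early LPre-B cells (1.25 and 1.95 against 2.27 and 2.10 CPM, log2 0.46 ± 0.27, edgeR adjusted P = 0.224). It stood at 1.42 CPM in both Ctrl sPre-B libraries and at 4.71 and 3.51 CPM in Upf1-cKO (log2 1.53 ± 0.27, edgeR adjusted P = 0.00307). Rcc1, on the strand of Snhg3, rose at that stage as well (log2 1.07 ± 0.17, edgeR adjusted P = 0.00178).

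Other noncoding hosts, taken as every further Snhg symbol of the table with Epb41l4aos and Rian, numbered 12, of which 10 passed the expression filter. In early LPre-B cells 4 were called higher and 0 lower, against 14.5% and 16.9% of all genes. Snhg16 was 14.8-fold higher (log2 3.89 ± 0.15, edgeR adjusted P = 4.4e-06), at 8.18 and 8.71 CPM against 112 and 138 CPM. Epb41l4aos followed with a log2 fold change of 3.38 ± 0.13, Snhg7 with 1.62 ± 0.13 and Snhg4 with 0.86 ± 0.13. In sPre-B cells 3 were called higher, against 19.8%, namely Snhg16 (log2 3.41), Epb41l4aos (2.84) and Snhg7 (0.39 ± 0.13, edgeR adjusted P = 0.0477). The Snhg7 call was lost in 12 of the alternative analyses, such as that with median-ratio scaling (adjusted P = 0.0619). The other 6 genes of this list were not called at either stage, and the median over the 10 tested was 0.31 in early LPre-B and -0.19 in sPre-B cells. Between stages in Upf1-cKO 3 were lower in sPre-B cells, against 31.1% of all genes, and 2 higher, against 31.6%. Snhg4 fell by 2.21 on the log2 scale, Snhg7 fell by 1.55 and Snhg16 fell by 0.76, while Snhg18 and Snhg20 rose. In Ctrl 1 was lower, Snhg4 (log2 -1.07 ± 0.14), against 31.1%, and 3 were higher, Snhg18, Snhg20 and Epb41l4aos, against 29.1%. Snhg7 and Snhg16 were not called there (edgeR adjusted P = 0.0652 and 0.113).

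Protein-coding hosts, a list of 40 with many ribosomal protein genes, all passed the filter. In early LPre-B cells 7 were called higher and 1 lower, against 14.5% and 16.9% of all genes, and in sPre-B cells 6 and 1, against 19.8% and 14.9%. The median log2 difference was -0.11 and -0.09, while single genes reached log2 values above 1. The genes called higher in early LPre-B cells were led by Tbrg4, an RNA-binding protein of mitochondria (log2 1.78 ± 0.12 in early LPre-B and 1.33 ± 0.12 in sPre-B cells), and Taf1d, a subunit of the RNA polymerase I factor SL1 (1.43 ± 0.11 and 1.06 ± 0.11), all with edgeR adjusted P values of at most 0.000246. In sPre-B cells Tbrg4 was followed by Rcc1, whose value is given above. Eif4g2, an initiation factor, was the one lower in early LPre-B cells (log2 -0.44 ± 0.15, edgeR adjusted P = 0.0489). Between stages 38 of 40 were lower in sPre-B than in early LPre-B cells in each genotype, against 31.1% of all genes. The median stage difference was -0.91 in Ctrl and -1.01 in Upf1-cKO, beside -0.74 and -1.42 for the 10 noncoding hosts, and the 2 lists were not tested against each other. Rcc1 and Rps2, a ribosomal protein gene, had the largest falls in Ctrl (log2 -2.84 ± 0.18 and -2.35 ± 0.21), and Eif4a2 was the one that rose there (log2 0.50 ± 0.13, edgeR adjusted P = 0.00914).

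The proteins that build snoRNPs, the particles in which snoRNAs work, were listed as 17 genes, of which Nop56 and Dkc1 are also on the list of protein-coding hosts. In early LPre-B cells 4 were called higher and 1 lower, against 14.5% and 16.9% of all genes, and in sPre-B cells 6 and 1, against 19.8% and 14.9%, with medians of 0.16 at both stages. Nop56, a box C/D core protein whose own gene hosts snoRNAs, rose by 1.26 ± 0.09 on the log2 scale in early LPre-B cells (edgeR adjusted P = 6.98e-05), and Nop58, its partner, by 0.87 ± 0.10 (adjusted P = 0.000392). Snu13 fell by 0.43 in early LPre-B cells (SE 0.11, edgeR adjusted P = 0.0167). In sPre-B cells the 2 largest rises were those of Shq1, an assembly chaperone for box H/ACA particles (log2 0.76 ± 0.20, edgeR adjusted P = 0.0184), and Znhit6, a box C/D assembly factor (0.50 ± 0.12, adjusted P = 0.0107), and Dkc1, the pseudouridine synthase, fell by 0.33 (SE 0.09, adjusted P = 0.0225). Without 1 of 3 single libraries the Znhit6 call was lost (adjusted P = 0.0512 to 0.066). The sPre-B calls of Nop58 and Nop56 were lost too, that of Nop58 without Ctrl sPre-B replicate 2 (adjusted P = 0.141), Upf1-cKO sPre-B replicate 2 (0.0855) or both Ctrl replicate 2 libraries (0.102), and that of Nop56 without Ctrl sPre-B replicate 1 (0.0626). Nop58 and Nolc1 fell the most between stages in Ctrl, by 1.79 and 1.69 on the log2 scale. Of the 17, 15 were lower in Ctrl and 16 in Upf1-cKO sPre-B than in early LPre-B cells, against 31.1% of all genes in each.

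NMD factors were listed as 14 genes, of which 8 were called higher and 2 lower in Upf1-cKO at the early LPre-B stage, against 14.5% and 16.9% of all genes, and 6 and 1 in sPre-B cells, against 19.8% and 14.9%. Smg9 (log2 1.12 ± 0.10, edgeR adjusted P = 0.000125) and Smg5 (1.06 ± 0.10, adjusted P = 0.000179), which regulate the UPF1 kinase and the dephosphorylation of UPF1, had the largest rises in early LPre-B cells. These were well below those of 8 of the host genes at that stage, which had log2 values of at least 2.67. Magoh and Eif4a3, of the exon junction complex, fell by 0.48 (SE 0.14, edgeR adjusted P = 0.029) and 0.37 (SE 0.10, adjusted P = 0.0192). In sPre-B cells Upf1 (log2 0.58 ± 0.10, edgeR adjusted P = 0.00245) and Smg5 (0.57 ± 0.10, adjusted P = 0.00313) led the rises, and Upf3a fell by 0.61 (SE 0.14, adjusted P = 0.00949). Upf1 is the floxed gene, and its count covers exons outside the floxed segment, so it does not measure intact Upf1 RNA or protein.

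**Figure D5:**
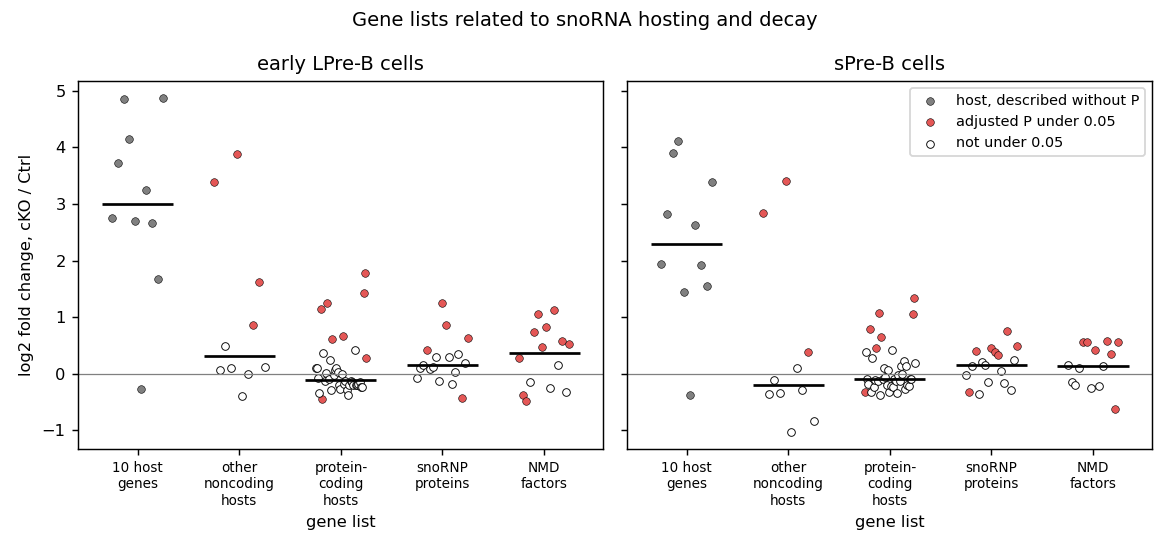
Log2 fold change, Upf1-cKO over Ctrl, of each tested gene in 5 lists, in early LPre-B cells (left) and sPre-B cells (right), filled red where the edgeR adjusted P was under 0.05, with a line at the median. The 10 hosts are grey, as values they were selected on. The median of the 10 hosts is 3.01 and 2.29, and those of the other lists lie between -0.19 and 0.38.

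Over the 8 libraries the 9 hosts other than Snhg3 had Pearson's r of log2 CPM between 0.862 and 0.998 over their 36 pairs, with a median of 0.976. Snhg3 had r between -0.14 and 0.30 with the other 9. The points share libraries and fall into 4 groups, so r mainly describes the group means and restates the genotype difference the genes may have been selected on. Outside the list, the genes most like the mean pattern of the hosts were Rabggtb (r = 0.999), Znhit6 (0.997), Tatdn2 (0.996), Cwf19l1 (0.996) and Tbrg4 (0.996). Rabggtb, a subunit of the Rab geranylgeranyl transferase, stood at 27 and 27.1 CPM in Ctrl and at 102 and 98.3 CPM in Upf1-cKO at the early LPre-B stage, and at 17.7 and 19.5 CPM against 54.5 and 53.2 CPM in sPre-B cells. By annotation Rabggtb holds 3 snoRNA genes on its strand, Tbrg4 2 and Cwf19l1 1, while Tatdn2 and Znhit6 hold 0. As the 5 genes were picked by their likeness to the hosts, nothing is read from these numbers. Of the 10 other noncoding hosts tested, 5 had a positive r, led by Snhg16 (0.961), Snhg7 (0.905) and Epb41l4aos (0.887), and 5 a negative one, down to -0.63 for Snhg18.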

How the data were processed

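B cell progenitors of both stages came from mouse bone marrow by cell sorting, rRNA was depleted and directional paired-end libraries were made. The authors used Trim Galore for trimming and HISAT2 for unstranded alignment to mm10, and deposited raw read counts per Entrez gene from featureCounts; no versions were given in the sources used here. Of 27179 genes, 25275 were named from RefSeq (GRCm38.p6). Samples were grouped by genotype and stage as labelled, with 2 libraries per group; the study's methods call replicates biological, and with 2 libraries the spread is estimated over all groups.

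Counts were fitted in edgeR 4.0.16 (R 4.3.3) with TMM scaling, filterByExpr by group (17700 genes kept), 1 mean per group and quasi-likelihood tests, two-sided, with Benjamini-Hochberg adjustment over all tested genes for each of 5 contrasts; adjusted P under 0.05 was called. The common biological coefficient of variation was 0.174. Depth was 68516857 to 160426338 counts, median 96210589.5. CPM are TMM-normalized. On data simulated for the sPre-B comparison (17418 genes tested), 66% of 50 genes changed by 1 on the log2 scale and 100% of those changed by 2, 3 or 4 were called. Every simulated gene had that same coefficient of variation, and only genes above a minimum expected count were changed. The real data are less uniform, so recovery in them can be lower. Alternatives were the likelihood-ratio test, DESeq2 1.42.0, median-ratio and upper-quartile factors, no filter, immunoglobulin genes left out, a replicate block, only the 4 libraries compared and each library left out; leaving out both Ctrl replicate 2 libraries was added after seeing the data.

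For each host, the GENCODE M21 transcript with more than 1 exon and no retained intron was taken, preferring a RefSeq match, then support level, exon number and length. The first open reading frame starts at the first ATG with a stop in frame. The members and lists were chosen with earlier results of these data known. Named genes were the 10 hosts, Upf1, Cd79a, snoRNA genes inside a host with at least 50 counts in a library, genes with exons overlapping a host, up to 2 called genes with the largest rise and 2 with the largest fall per list and contrast, and the 5 genes most correlated with the mean of the hosts. Not every list gene that falls under the rule in the stage contrasts alone is named, and further list genes named beside a count were chosen after their values were seen.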

Additional observations from a re-analysis of the deposited data

How the results depend on the processing

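The stage comparison in Upf1-cKO called 10 hosts lower under every alternative run. The stage and genotype differences and the interaction of the hosts are descriptions, as the genes may have been selected on them. Nothing is read from how their values held. Leaving out libraries moved the median log2 difference of the hosts to between 2.996 and 3.08 in early LPre-B and 2.17 and 2.38 in sPre-B cells, to between -0.79 and -0.51 for the stage difference in Ctrl (6 to 8 hosts lower) and to between -0.97 and -0.70 for the interaction (1 to 7 lower). Upper-quartile scaling gave 2 hosts higher between stages in Ctrl and a median of -0.63, and it moves the median of all genes there to 0.12. The cause was not tested. Of the snoRNA genes, the Snora73 pair had the most counts, up to 7511 in a library, and also the widest errors (SE 0.63 to 0.69 for the genotype differences). The others had at most 1464 counts, and the part of depth was not tested.

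The labels do not say that replicate numbers pair the samples. Deviations of same-numbered libraries correlated at 0.155 between genotypes in early LPre-B and 0.0858 in sPre-B cells, and at 0.395 between the stages in Ctrl and 0.254 in Upf1-cKO. Both Ctrl replicate 2 libraries also shared the sex difference. With a replicate block the median genotype differences were 3.01 and 2.29, 8 hosts were lower and 1 higher between stages in Ctrl and 10 lower in Upf1-cKO, and the median interaction was -0.78.

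Signs that turned belong to log2 values near 0 or to the Snora73 pair, none called in the fit of all libraries. With libraries left out, the interaction ranged from -0.46 to 0.13 for Snhg3, -0.38 to 0.012 for Snhg8 and -0.35 to 0.14 for Snhg15. In early LPre-B cells the genotype difference ranged from -0.59 to 1.77 for Snora73b, -0.56 to 1.63 for Snora73a, -0.72 to 0.38 for Snord87, -0.21 to 0.072 for Snora24 and -0.064 to 0.36 for Snora16a. In sPre-B cells it ranged from -0.72 to 0.0095 for Snord47, -0.078 to 0.48 for Snord12, -0.26 to 0.29 for Snord87, -0.27 to 0.28 for Snora44, -0.0017 to 0.20 for Smg9 and -0.0086 to 0.14 for Znfx1. Snord87 at that stage was -0.0078 with DESeq2 and -0.0064 with median-ratio factors.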

Other observations

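Hosts were also taken from the annotation alone, as tested genes with at least 1 snoRNA gene inside them on the same strand. Only the 16179 of 17700 tested genes whose symbol is in GENCODE M21 could be searched. Snhg16, Snhg7 and Snhg4 were not among them and are missing from the set. The search gave 235 protein-coding genes and 18 others outside the 10. Of the protein-coding ones 46 were called higher and 29 lower in Upf1-cKO early LPre-B cells (19.6% and 12.3%, against 14.5% and 16.9% of all genes), and 12 of those called higher had a log2 fold change of at least 1. In sPre-B cells 53 were called higher and 33 lower (22.6% and 14.0%, against 19.8% and 14.9%), with 14 of the higher at that fold. The medians were -0.07 and -0.01. Of the 18 other genes, 4 were called higher in early LPre-B and 6 in sPre-B cells (against 14.5% and 19.8% of all genes) and 0 lower at either stage (against 16.9% and 14.9%), with medians of 0.15 and 0.13. This set was drawn up after the values were seen and was not tested. Among named genes it holds Taf1d with 8 snoRNA genes, Eif4a2 and Nop56 with 5 each, and Epb41l4aos with 1. Eif4a2 rose by 1.14 ± 0.13 on the log2 scale in early LPre-B cells (edgeR quasi-likelihood adjusted P = 0.00046) and by 0.79 ± 0.13 in sPre-B cells (adjusted P = 0.00224).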
